A study of Mus musculus with 6 samples.

Results

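Interferon response genes and the sensors of nucleic acids that can switch them on were followed in a mouse cell line that had been given mitochondria from other cells. The set holds 42 genes, listed by symbol and matched through the GRCm38 annotation to 42 of the 55335 gene identifiers in the data. They fall into 5 sensors and adaptors, 5 transcription factors of the IRF and STAT families, 2 chains of the type I interferon receptor, 26 induced antiviral genes and 4 genes of antigen processing. Of the 42, 41 were expressed highly enough to be tested, and 40 of these reached 1 FPKM or more in every library. FPKM counts fragments per kilobase of transcript, scaled to the size of the library, so levels can be set side by side between genes. None of the 41 entered the test through 1 group alone.

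The 6 libraries came from cells labelled bEnd.3 with a wild-type genotype, a brain endothelial line of the mouse immortalised with a polyomavirus oncogene and kept in high-glucose DMEM with serum. In 3 of them, called control here, the cells received medium alone. In the other 3, called mitochondria, they received mitochondria isolated from primary mouse astrocytes in the same volume of medium, and all cells were collected after 24 h. Whether replicate libraries were grown as separate cultures is not in the labels, and p-values therefore measure only how far these samples differed, a spread that can be technical. The depth, estimated from the values in mega-fragments (M), was 17.0 to 21.1 M in the controls and 21.8 to 27.2 M in the mitochondria libraries, without overlap. Of 12 endothelial markers, 7 stayed under 1 FPKM in all 6 libraries, among them Cdh5 and Cldn5, so most defining genes of the labelled cell type were absent or near 0. Of 9 astrocyte markers, 3 were at 1 FPKM or more in every library, among them Glul and Aldoc, and the list summed to 63.2 to 102 FPKM in the controls and 79.1 to 83.9 FPKM with mitochondria. Aqp4 was listed at 0 in all libraries and Gfap did not pass 0.198 FPKM. The leukocyte gene Ptprc and the microglial genes P2ry12 and Tyrobp were listed at 0 throughout. The summed level of 11 markers of microglia, macrophages and leukocytes was nonetheless lower with mitochondria, at 183 to 210.2 FPKM against 226 to 274 FPKM, nearly all of it Tmem119. The summed level of fibroblast and mural markers was 375 to 414 FPKM with mitochondria against 425 to 461 FPKM. Of the 5 genes of that list that were tested, 3 had a positive log2 change with mitochondria and 2 a negative one, among them Col1a1. The part of depth and of these markers in the results was not tested, and in bulk samples fewer cells of a type and less RNA per cell cannot be told apart.

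Cells carry receptors for misplaced nucleic acids. Ifih1 (also called MDA5) recognises double-stranded RNA in the cytosol and signals through Mavs, an adaptor anchored in the outer membrane of mitochondria, while cGAS and STING respond to DNA in the cytosol and TLR9 to DNA in endosomes. These routes activate Irf3 and Irf7, which switch on the interferon genes. Secreted interferon binds a receptor made of Ifnar1 and Ifnar2, and a complex that includes Stat2 and Irf9 then binds the interferon-stimulated response element (ISRE) of the induced genes. Mitochondrial DNA and double-stranded mitochondrial RNA are known ligands of these sensors, which is why the set is of interest in cells that receive foreign mitochondria.

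After 24 h with mitochondria 1 member was called changed, and it was 1 of the 26 induced antiviral genes. That gene was Slfn5, a Schlafen family gene induced by interferon, which rose, while no sensor, transcription factor, receptor chain or antigen processing gene was called. By limma with Benjamini-Hochberg adjustment, 1 of the 41 tested members (2.44%) passed an adjusted p of 0.05, against 1.12% of all 12639 genes tested. In the higher direction alone the share of all genes was 0.467%. At an unadjusted p under 0.05 there were 6 members (14.6%), all higher, against 13.9% of all genes. The call of Slfn5 was lost in each of the 6 fits that left out 1 library, where its limma adjusted p lay between 0.0823 and 0.153. Many members had their lowest or highest value in the same control or mitochondria library, and that spread is described after the levels.

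The induced genes stood at high levels in the cells given medium alone. The mean of the 3 controls was 10 FPKM or more for 21 of the 26 induced antiviral genes and 100 FPKM or more for 6 of them. The median of these means was 21.5 FPKM for the induced genes and 7.30 FPKM for all tested genes. Ifitm3, a membrane protein that blocks the fusion of viruses with the cell, was the most abundant at 1195, 1105 and 1018 FPKM in control replicates 1 to 3. Its levels were 930, 912 and 1203 FPKM in mitochondria replicates 1 to 3, so both groups reached about the same top. At the other end Ifitm1, a gene of the same family, lay between 0.861 and 1.87 FPKM. Transcripts of the interferons themselves were close to absent. Of 13 interferon genes, 9 were listed at 0 in every library, and the highest value of any, 0.414 FPKM, was that of Ifnb1 in control replicate 2. Ifnb1 was listed at 0 in control replicate 1 and lay between 0.0978 and 0.260 FPKM in the mitochondria libraries.

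**Figure D1:**
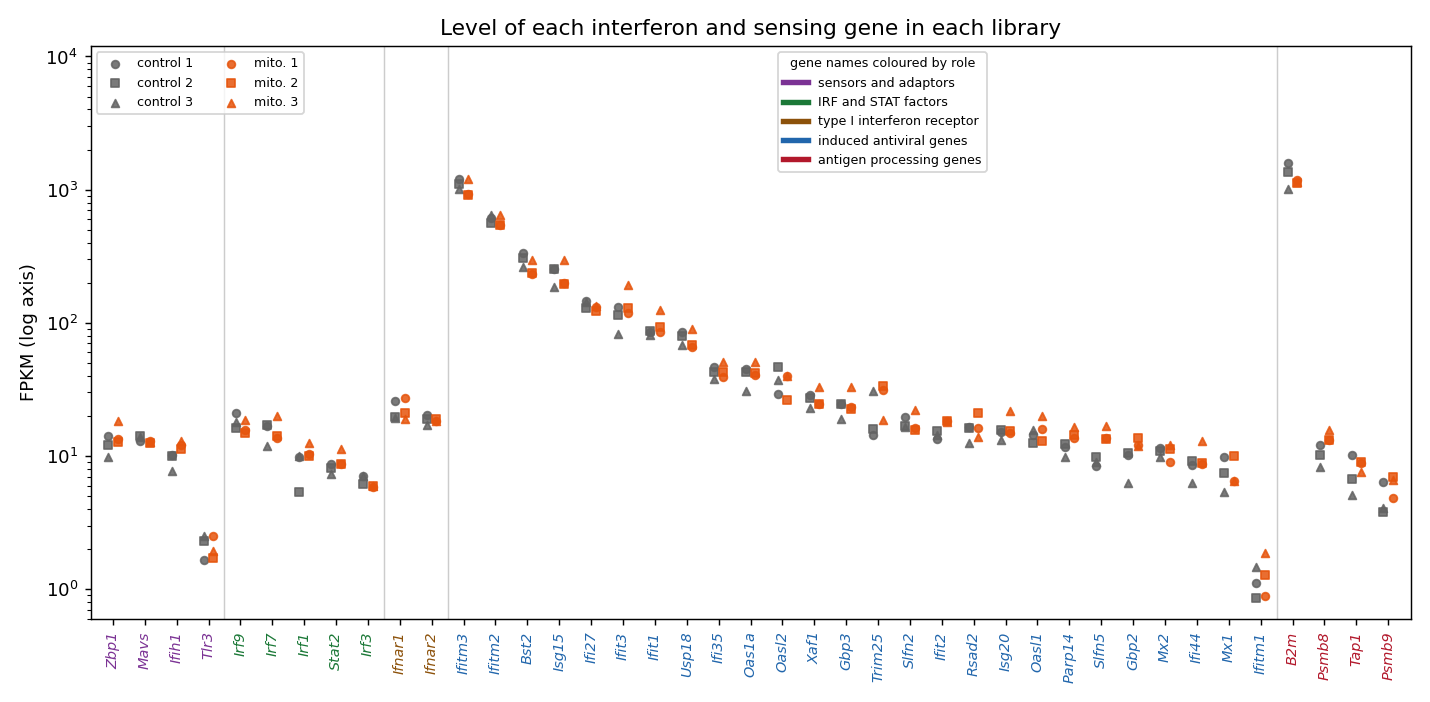
FPKM of the 41 tested genes in each library, on a log axis, with genes grouped and coloured by role and ordered by mean level within a role. Grey symbols are the 3 control libraries and orange symbols the 3 mitochondria libraries, with circles, squares and triangles for replicates 1, 2 and 3. Ifitm1 lies lowest, Ifitm3 and B2m lie highest, and the colours mostly overlap.

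The response element can be looked for in the DNA around the start sites that RefSeq gives these genes. RefSeq promoter windows on GRCm38.p6, of 300 bases that span the start of transcription and lie mostly before it, were at hand for 36 of the 42 members. The core of the ISRE, searched as GAAANNGAAA on both strands, occurred in 14 of the 36 members (38.9%) and in 3.99% of all 27025 genes with a window. Among the induced antiviral genes it occurred in 11 of 21. The core of the gamma-activated site (GAS), which STAT dimers bind, was searched as TTCNNNGAA, which reads the same on both strands. It occurred in 10 of the 36 members (27.8%) and in 9.55% of all genes with a window. A match is a description of letters and shows no binding.

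Stretches of 80 bases from 8 of these windows show what the cores look like in genes with different behaviour here, with matches to the core in capitals and each sequence read 5′ to 3′ in the direction of the gene. The first 6 hold the ISRE core. Isg15 (chr4:156200840-156200919, minus strand) has 3 overlapping copies and Oas1a (chr5:120907495-120907574, minus strand) has 2. Ifit1 (chr19:34640769-34640848, plus strand) and Ifit3 (chr19:34583372-34583451, plus strand) have 2 separate copies each, seen here as their reverse complement. Gbp2 (chr3:142620569-142620648, plus strand) has 1, again as its reverse complement. Slfn5 (chr11:82951912-82951991, plus strand) has 1 that runs into a stretch of A. The last pair hold the GAS core, Irf1 (chr11:53769888-53769967, plus strand) and Psmb8 (chr17:34198062-34198141, plus strand). RefSeq start sites can differ from those of the GRCm38 annotation that gave the gene positions. In that annotation Slfn5 begins at 82951349 and Psmb8 at 34197721, so their stretches lie wholly inside the gene and not before it. The stretches of Oas1a and Gbp2 reach into the gene.
Isg15: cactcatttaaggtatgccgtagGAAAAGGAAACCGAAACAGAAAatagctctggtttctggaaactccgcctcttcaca
Oas1a: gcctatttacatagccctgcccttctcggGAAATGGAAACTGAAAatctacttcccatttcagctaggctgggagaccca
Ifit1: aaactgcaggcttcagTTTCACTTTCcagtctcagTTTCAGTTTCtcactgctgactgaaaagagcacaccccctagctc
Ifit3: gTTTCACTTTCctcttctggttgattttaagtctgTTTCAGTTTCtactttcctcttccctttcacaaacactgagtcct
Gbp2: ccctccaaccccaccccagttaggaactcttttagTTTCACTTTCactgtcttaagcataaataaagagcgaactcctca
Slfn5: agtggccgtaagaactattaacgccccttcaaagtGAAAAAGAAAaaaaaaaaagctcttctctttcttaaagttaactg
Irf1: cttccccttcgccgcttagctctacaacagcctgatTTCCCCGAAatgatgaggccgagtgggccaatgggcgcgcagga
Psmb8: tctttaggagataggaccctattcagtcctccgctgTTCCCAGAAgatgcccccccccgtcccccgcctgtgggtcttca

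Among the sensors, none was called changed. Ifih1 (chromosome 2, 62595798 to 62646255) was at 10.2, 10.04 and 7.73 FPKM in control replicates 1 to 3 and at 12.01, 11.2 and 12.9 FPKM in mitochondria replicates 1 to 3. All mitochondria libraries lay above all controls. Its log2 change (of FPKM + 1, from control to mitochondria, as in all changes given here) was 0.34 (SE 0.11, limma adjusted p = 0.228). Mavs, the mitochondrial adaptor, was at 13.1, 14.2 and 13.9 FPKM in the controls and at 12.9, 12.4 and 12.8 FPKM with mitochondria, a small difference without overlap in the other direction. The change of Mavs was −0.10, with a 95% interval from −0.23 to 0.03 (limma adjusted p = 0.459). Zbp1, a sensor of nucleic acids in the Z form, was at 14.2, 12.03 and 9.87 FPKM in the controls and at 13.3, 12.8 and 18.5 FPKM with mitochondria. Mitochondria replicate 3 alone stood clearly above the controls in Zbp1. Tlr3, the endosomal receptor of double-stranded RNA, lay between 1.64 and 2.51 FPKM with overlapping groups, and Tlr9, the endosomal receptor of DNA, was listed at 0 in all 6 libraries.

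Of the 5 transcription factors none was called, and 3 of them did not overlap between the groups, 2 higher and 1 lower, against 9.62% and 11.4% of all genes tested. Irf1, a factor induced by interferon gamma, was at 9.91, 5.41 and 9.98 FPKM in the controls and at 10.4, 10.1 and 12.6 FPKM with mitochondria. The lowest mitochondria library was almost level with 2 of the controls, and control replicate 2 stood far below the rest. The log2 change of Irf1 was 0.39 (SE 0.21, limma adjusted p = 0.486). Irf3, the constitutive factor that the sensors activate, was at 7.06, 6.11 and 7.01 FPKM in the controls and at 5.84, 5.98 and 5.93 FPKM with mitochondria. Its groups did not overlap, and it was lower with mitochondria (log2 change −0.16, SE 0.07, limma adjusted p = 0.372). Irf7, the factor that interferon induces and that amplifies the response, was at 16.7, 16.97 and 11.9 FPKM in the controls. With mitochondria Irf7 was at 13.7, 14.1 and 19.9 FPKM, so the third replicate was the lowest of all in the controls and the highest of all with mitochondria. Stat2 was at 8.66, 8.13 and 7.28 FPKM in the controls and at 8.72, 8.70 and 11.3 FPKM with mitochondria, and only the last of these stood well clear (limma adjusted p = 0.440). Irf9, its partner, was at 18.5 ± 2.44 and 16.4 ± 1.86 FPKM (SD, n = 3; limma adjusted p = 0.583) with overlapping groups.

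Reads of some of these factors lie where other genes are annotated, and the sources used here do not say whether quantification used strand. Irf3 overlaps Bcl2l12 and Irf7 overlaps Phrf1 on the opposite strand, where the neighbours averaged 4.94 and 6.10 FPKM, and Irf9 overlaps Rnf31 on its own strand, at 5.86 FPKM.

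Neither receptor chain was called. Ifnar1 was at 21.6 ± 3.58 FPKM in the controls and 22.5 ± 4.32 FPKM with mitochondria (SD, n = 3), with a log2 change of 0.06 (95% interval −0.31 to 0.43, limma adjusted p = 0.916). Ifnar2 was at 18.8 ± 1.55 and 18.6 ± 0.307 FPKM, with a log2 change of −0.02 and a narrower 95% interval from −0.18 to 0.15 (limma adjusted p = 0.950).

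**Figure D2:**
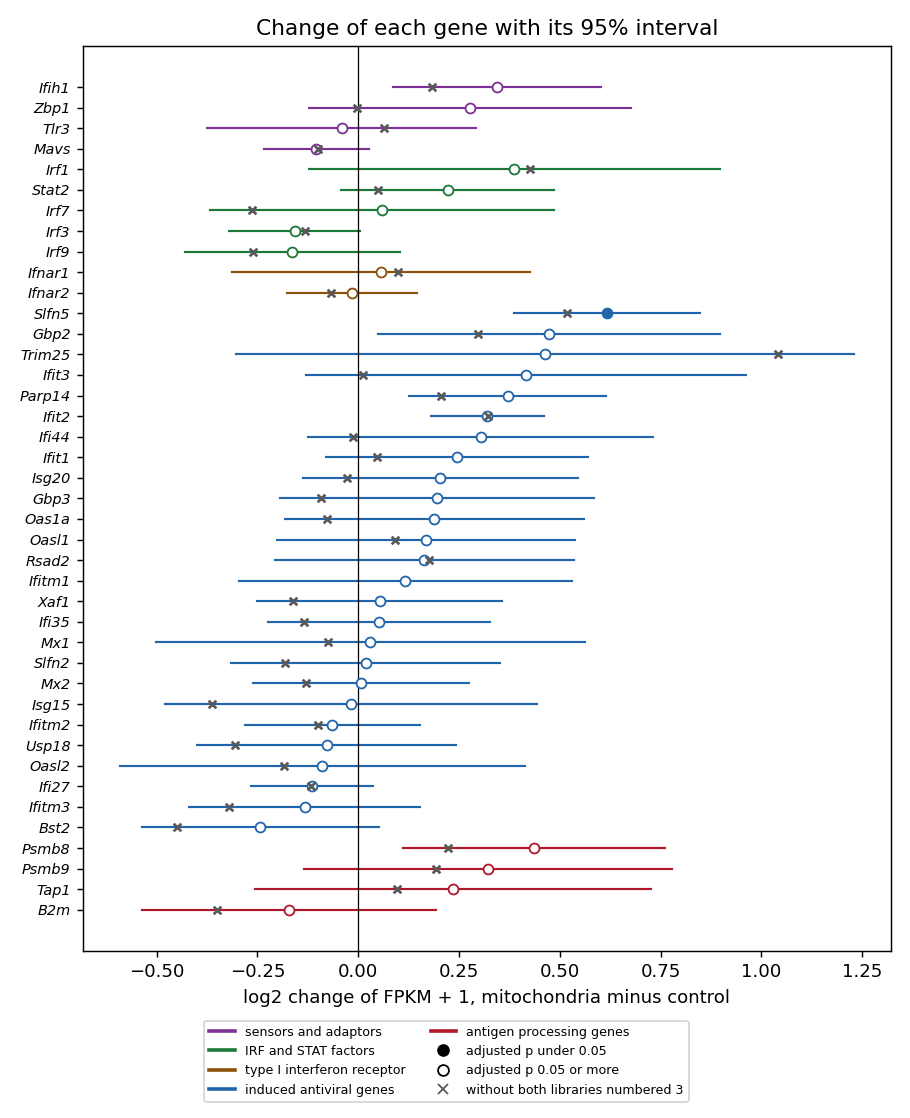
Log2 change of FPKM + 1, mitochondria minus control, for the 41 tested genes grouped by role. Circles are the estimates, filled where the limma adjusted p was under 0.05, lines are limma's 95% intervals, and crosses are the estimates without both libraries numbered 3. Slfn5 is the 1 filled circle, 35 of the 41 intervals include 0, and most crosses lie to the left of their circle.

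Slfn5 (ENSMUSG00000054404, chromosome 11, 82951349 to 82964840) was at 8.46, 9.83 and 9.05 FPKM in control replicates 1 to 3. With mitochondria it was at 13.6, 13.4 and 16.7 FPKM, so all 3 libraries stood above every control by more than the spread within either group. The log2 change was 0.62 (SE 0.10, 95% interval 0.39 to 0.85, limma adjusted p = 0.0444), and without both libraries numbered 3 it was 0.52 and no longer called (limma adjusted p = 0.101). The call was also lost with the replicate block, after rescaling to TPM, with plain empirical Bayes and with no filter on low values, where the limma adjusted p lay between 0.0522 and 0.146. It held in 6 of the 11 settings other than single omissions. In the fits with 1 library left out, where the call was lost, the log2 change of Slfn5 lay between 0.52 and 0.67. Over all genes, 14 to 88 were called in those fits, against 141 in the fit with all libraries. Slfn2, the other Schlafen gene of the set, did not share the difference, at 17.7 ± 1.84 and 18.1 ± 3.70 FPKM (SD, n = 3; limma adjusted p = 0.974). The difference between the changes of the 2 genes was not tested.

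Ifit2 (chromosome 19, 34550694 to 34576419), whose protein binds foreign RNA, came next by p among the members. It was at 13.5, 15.4 and 14.3 FPKM in the controls and at 18.3, 18.2 and 18.1 FPKM with mitochondria. The mitochondria libraries were nearly identical and all above the controls, and the log2 change of 0.32 (SE 0.06) had a limma adjusted p of 0.0665. The related genes Ifit1 and Ifit3 had a wider spread, with mitochondria replicate 3 far above all other libraries. Ifit1 was at 85.5, 87.4 and 80.4 FPKM in the controls and at 85.5, 93.4 and 126 FPKM with mitochondria. Ifit3 was at 132, 114 and 82.0 FPKM in the controls and at 119, 130.01 and 193 FPKM with mitochondria (limma adjusted p = 0.485). Of the 31-base words of Ifit3, 61.8% also occur in its near copy Ifit3b, so the split of reads between these 2 genes is uncertain.

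Parp14, Gbp2 and the immunoproteasome subunit Psmb8 were higher in all 3 mitochondria libraries than in any control, though none was called. Parp14, an ADP-ribosyltransferase, was at 11.7, 12.3 and 9.74 FPKM in the controls and at 13.7, 14.3 and 16.5 FPKM with mitochondria (log2 change 0.37, SE 0.10, limma adjusted p = 0.175). Gbp2, a guanylate-binding protein that attacks the vacuoles of pathogens, was at 10.1, 10.5 and 6.23 FPKM in the controls and at 12.2, 13.7 and 11.8 FPKM with mitochondria (log2 change 0.47, SE 0.18, limma adjusted p = 0.308). In Gbp2 the gap between groups was smaller than the distance of control replicate 3 from the other controls. Psmb8 was at 12.1, 10.2 and 8.21 FPKM in the controls and at 13.1, 13.1 and 15.8 FPKM with mitochondria (log2 change 0.44, SE 0.14, limma adjusted p = 0.226).

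Counted over the set, 8 members (19.5%) were higher in every mitochondria library than in any control, against the 9.62% of all genes. They were Ifih1, Irf1, Stat2, Ifit2, Gbp2, Slfn5, Parp14 and Psmb8. In the other direction there were 2 members (4.88%), Mavs and Irf3, against 11.4% of all genes. The members' median log2 change was 0.12, with 28 of 41 positive, and the median of all tested genes was −0.01, with 48.0% positive. The members were chosen with results of these libraries known, and no test of the set was made.

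**Figure D3:**
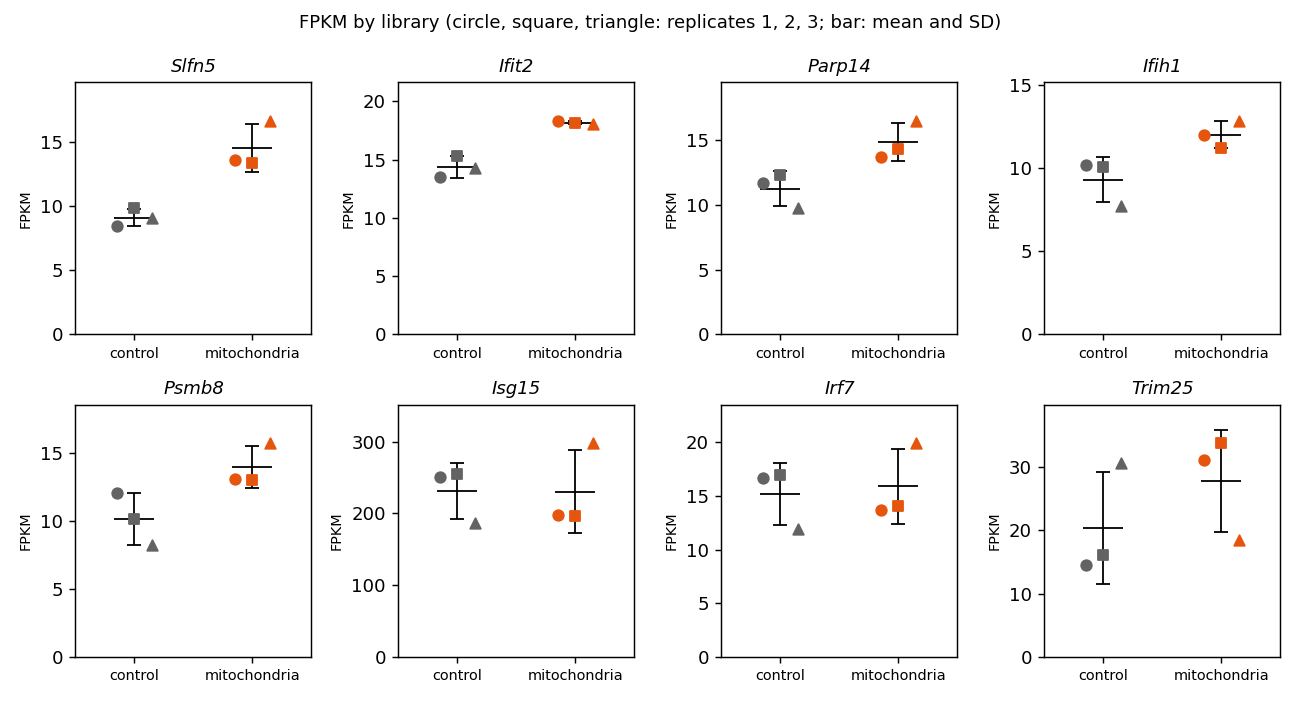
FPKM by library for 8 members, with circles, squares and triangles for replicates 1, 2 and 3 and bars for the group mean and SD (n = 3), each axis starting at 0. Slfn5, Ifit2, Parp14, Ifih1 and Psmb8 do not overlap between groups, Isg15 and Irf7 have their lowest or highest value in the third replicate, and Trim25 is split into high and low libraries in both groups.

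Of the 6 induced genes at a mean of 100 FPKM or more, 5 had a log2 change between −0.24 and −0.02 and Ifit3 a positive one, and none was called. Isg15 (chromosome 4, 156199424 to 156200818), a ubiquitin-like protein joined to other proteins in the antiviral state, was at 251, 256 and 186 FPKM in the controls. With mitochondria it was at 198, 196 and 298 FPKM, so the third replicate set both the lowest and the highest value. The means of Isg15 were 231 ± 38.9 and 231 ± 58.5 FPKM (SD, n = 3), a log2 change of −0.02 with a 95% interval from −0.48 to 0.45 (limma adjusted p = 0.984). Without both libraries numbered 3 the change of Isg15 was −0.36 (limma adjusted p = 0.0823). Bst2, or tetherin, which holds budding viruses to the cell, was at 334, 308 and 262 FPKM in the controls and at 232, 238 and 295 FPKM with mitochondria (log2 change −0.24, limma adjusted p = 0.445), and without the same libraries its change was −0.45 (limma adjusted p = 0.0823). Usp18, which removes Isg15 from proteins and damps the receptor, was at 78.1 ± 8.78 and 74.4 ± 13.1 FPKM. Ifi27 was at 139.7 ± 8.26 and 129 ± 5.24 FPKM, and Ifitm2 was at 603 ± 43.2 and 578 ± 59.0 FPKM. The Ifitm2 level is uncertain, since 55.5% of its 31-base words occur in other annotated genes, chiefly predicted ones.

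Oas1a, Oasl1, Oasl2, Mx1, Mx2, Rsad2, Isg20, Xaf1, Ifi35, Ifi44 and Gbp3 overlapped between the groups. Oas1a, which makes the oligoadenylates that activate RNase L, was at 44.9996, 42.6 and 30.6 FPKM in the controls and at 40.8, 42.1 and 51.1 FPKM with mitochondria, and it shares 68.8% of its words with other genes, chiefly Oas1g. Its relatives Oasl1 and Oasl2 were at 14.2 ± 1.66 and 37.8 ± 8.68 FPKM in the controls. With mitochondria Oasl1 was at 16.3 ± 3.55 and Oasl2 at 35.5 ± 7.89 FPKM. Mx1 and Mx2, dynamin-like GTPases, changed by 0.03 and 0.01 on the log2 scale, with limma adjusted p-values of 0.974 and 0.989. Rsad2, or viperin, was at 16.4, 16.1 and 12.6 FPKM in the controls and at 16.4, 20.9 and 14.0 FPKM with mitochondria. Rsad2 and Mx1 were highest in mitochondria replicate 2 and not in replicate 3. Isg20, an exonuclease, Xaf1, Ifi35, Ifi44 and Gbp3 each had their lowest value in control replicate 3 and their highest in mitochondria replicate 3, with limma adjusted p-values from 0.517 to 0.896.

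Trim25 (chromosome 11, 88999376 to 89020293), a ubiquitin ligase that acts on the sensor RIG-I, had a pattern of its own. It was at 14.4, 16.1 and 30.6 FPKM in the controls and at 31.05, 33.8 and 18.5 FPKM with mitochondria. The libraries thus formed a high and a low set, with 1 library of each group on the far side of its own group. The log2 change of 0.46 had the widest 95% interval of the set, from −0.30 to 1.23 (limma adjusted p = 0.588). Without both libraries numbered 3 the change was 1.04 (limma adjusted p = 0.0358). That omission was chosen after seeing the data and takes out just the library of each group on the far side. The p-value of that fit therefore cannot tell whether the groups differ.

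In antigen processing Psmb9, the other catalytic subunit of the immunoproteasome listed here, was at 6.39, 3.80 and 4.06 FPKM in the controls and at 4.81, 6.997 and 6.56 FPKM with mitochondria. Tap1, which carries peptides into the endoplasmic reticulum, was at 7.30 ± 2.56 and 8.49 ± 0.747 FPKM. Tap1 and Psmb9 lie head to head and overlap on opposite strands, so part of their reads cannot be told apart without strand. B2m, the light chain of MHC class I, fell apart by library within the controls, at 1583, 1354 and 1009 FPKM. With mitochondria B2m was at 1173, 1123 and 1149 FPKM, inside the range of the controls (log2 change −0.17, limma adjusted p = 0.681).

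Many of the extreme values in the set lay in 2 libraries, 1 of each group. The parts of the spread within and between groups were not calculated. Mitochondria replicate 3 held the highest value of 24 of the 41 tested members (58.5%), against 15.5% of all tested genes. Among the induced antiviral genes it held the highest value of 18 of 26. Control replicate 3 held the lowest value of 21 of the 41 (51.2%), against 21.2% of all tested genes. The median deviation of the induced antiviral genes from their mean over the 6 libraries was 0.26 on the log2 scale in mitochondria replicate 3 and −0.19 in control replicate 3. In the other 4 libraries it lay between −0.07 and 0.05. Of the 11 induced genes whose promoter window holds the ISRE core, 8 were highest in mitochondria replicate 3, and of the 10 with a window and no core, 7 were.

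**Figure D4:**
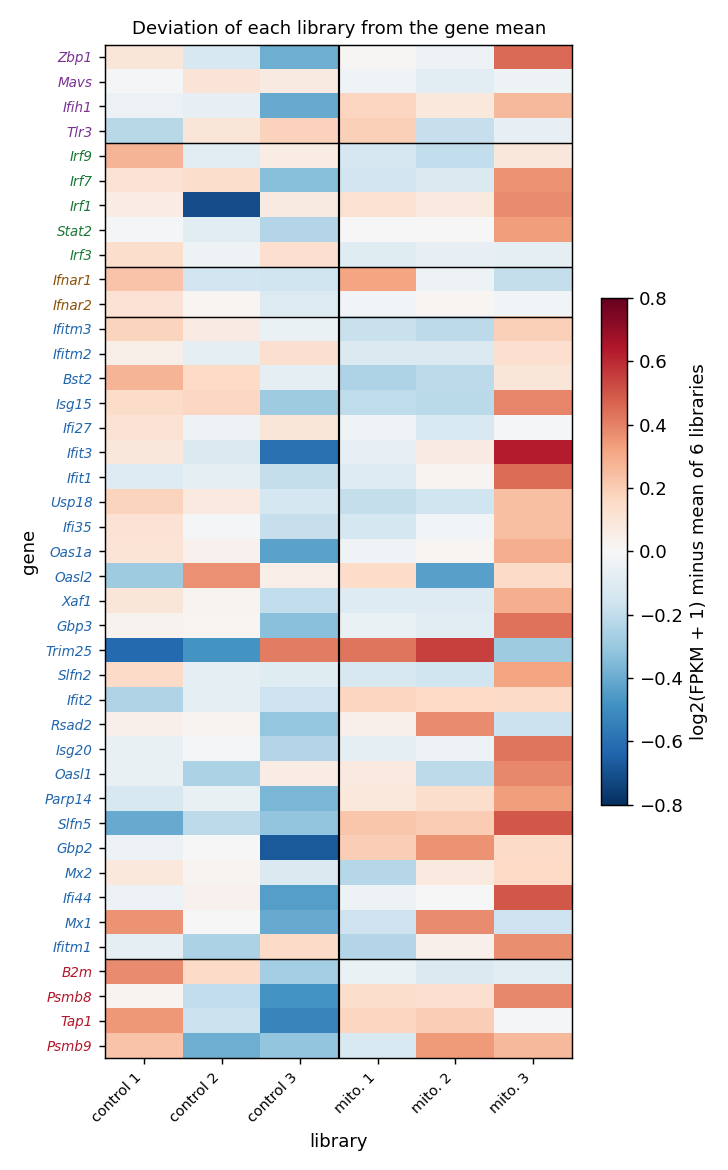
Deviation of each library from the gene's mean over the 6 libraries, in log2(FPKM + 1), for the 41 tested genes in rows and the libraries in columns. Red is above the mean and blue below it, and the vertical line parts control from mitochondria. The column of mitochondria replicate 3 is mostly red among the induced genes and that of control replicate 3 mostly blue.

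Without these 2 libraries the direction of the set turned. With both left out, an alternative chosen after seeing the data, the members' median log2 change was −0.05 with 17 of 40 positive, against −0.01 for all genes. By limma 1 of the 40 members was called in that fit, against 37 of all 12367 genes tested. It was Trim25, for which the 2 libraries left out were those on the far side of their groups. At an unadjusted p under 0.05 there were then 13 of 40 members (32.5%), 6 higher and 7 lower, against 15.1% of all genes in that fit. The libraries left out were those that held many of the members' extreme values. This share and the turned direction therefore follow in part from the choice, and they cannot tell whether the groups differ. With only mitochondria replicate 3 left out the median was 0.03, and with only control replicate 3 left out it was also 0.03. The labels name no batch. the estimated depth was 21.1 M in control replicate 3 and 24.0 M in mitochondria replicate 3, within or at the edge of their groups, and its part in this spread was not tested.

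Genes of the same pathway outside the set were examined in lists. Of 23 tested sensors, adaptors and kinases that are not members, none was called by limma and 5 (21.7%) had an unadjusted p under 0.05, all higher, against the 13.9% of all genes. The smallest p-values were those of Unc93b1, which carries endosomal TLRs to their place, at 14.9 ± 0.910 and 18.7 ± 1.57 FPKM, and of the RNA-binding antiviral gene Zc3hav1, at 20.3 ± 1.74 and 25.9 ± 2.82 FPKM. Their limma adjusted p-values were 0.138 and 0.190. For DNA in the cytosol, Cgas was at 2.48 ± 0.351 and 2.27 ± 0.277 FPKM and Sting1 at 21.5 ± 0.438 and 23.01 ± 0.623 FPKM. Sting1 did not overlap between groups, and the limma adjusted p-values were 0.767 for Cgas and 0.443 for Sting1. Ddx58, which encodes RIG-I, was at 20.1 ± 0.716 and 23.3 ± 3.44 FPKM, and the kinase Tbk1 at 8.36 ± 0.493 and 8.42 ± 0.207 FPKM. Of 12 tested nucleases and other brakes on sensing, none was called and none had an unadjusted p under 0.05 by limma. Banf1 had the smallest p of them, at 52.5 ± 13.5 and 38.4 ± 3.06 FPKM, followed by Dnase2a, at 5.25 ± 0.736 and 4.48 ± 0.256 FPKM (limma adjusted p = 0.393 and 0.447).

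Of 20 tested signalling genes none was called by limma, and 3 were higher and 2 lower at an unadjusted p under 0.05, together 25% against the 13.9% of all genes. The inhibitors Socs3 and Socs1 came nearest. Socs3 was at 23.6 ± 2.11 FPKM in the controls and 31.7 ± 0.860 FPKM with mitochondria, with no overlap (log2 change 0.41, SE 0.07, limma adjusted p = 0.0570). Socs1 was at 1.99 ± 0.307 and 3.39 ± 0.253 FPKM (log2 change 0.56, SE 0.10, limma adjusted p = 0.0586).

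Among 51 tested interferon-induced genes outside the set, none was called by limma and 9 (17.6%) had an unadjusted p under 0.05, all higher, against the 13.9% of all genes. Their median log2 change was 0.14 with 43 positive, and 0.03 without both libraries numbered 3, with 31 of 50 positive. Mitochondria replicate 3 was the highest library for 36 of the 51 and control replicate 3 the lowest for 32, which are 70.6% and 62.7% against 15.5% and 21.2% of all tested genes. Ifi203 was at 7.03 ± 0.788 and 9.78 ± 0.518 FPKM (limma adjusted p = 0.0865), Gbp9 at 3.59 ± 0.631 and 5.31 ± 0.0245 FPKM (limma adjusted p = 0.109) and the chemokine Cxcl10 at 25.9 ± 2.22 and 25.8 ± 5.76 FPKM. Of 15 other genes of MHC class I and the immunoproteasome, none was called and 2 (13.3%) had an unadjusted p under 0.05 by limma, against the 13.9% of all genes. These were Nlrc5, the activator of class I genes, at 1.45 ± 0.2002 and 2.29 ± 0.153 FPKM, and Tap2 at 15.7 ± 1.13 and 22.5 ± 3.55 FPKM (limma adjusted p = 0.0865 and 0.119). The class I heavy chains H2-K1 and H2-D1 were at 58.4 ± 20.9 and 170.3 ± 31.2 FPKM in the controls and at 48.2 ± 6.59 and 150.2 ± 5.18 FPKM with mitochondria.

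The size of change that these data allow differs by gene. Of the 41 members, 40 had a 95% interval within 1 log2 unit of 0 on the log2(FPKM + 1) scale, a 2-fold change, and Trim25 was the exception. The intervals of 35 members included 0, and those of Ifih1, Ifit2, Gbp2, Slfn5, Parp14 and Psmb8 lay above it before adjustment for the number of genes.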

How the data were processed

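Each library came as a single column of deposited values over 55335 gene identifiers. The deposited values are read here as FPKM from their scale and their length-dependent steps, since the file headers name no unit. The tools that the submitters' processing notes name are StringTie 1.3.1c, STAR 2.5.3a and FastQC 0.11.5, with mouse build GRCm38, and roles and settings are not given in the sources used here. Symbols and positions came from GENCODE M21 on GRCm38. From the deposited FPKM, limma 3.58.1 (R 4.3.3) was fitted to log2(FPKM + 1) with a term for group alone and with trend and robust options. The 12639 genes that reached 1 FPKM in 3 or more libraries were tested, with two-sided Benjamini-Hochberg adjusted p-values across those genes. A gene was called at an adjusted p under 0.05. The code was tested on simulated data. Counts were not analysed here. Depth was estimated from the step worth 1 fragment in genes with a single transcript. Whole reads could not be recovered, since only 17.9% to 20.0% of low values were whole multiples of that step to within 0.02. The members and lists were chosen with earlier results of these data known. The rule for named genes was all 42 members, from each other list the called genes or, with none called, the 2 with the smallest p, and Cgas, Sting1, Ddx58, Tbk1, H2-K1, H2-D1, Cxcl10 and Ifnb1, besides 1 gene that is not reported here. Alternatives changed the pseudocount, filter, scaling, variance model, replicate block and the libraries used.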

Additional observations from a re-analysis of the deposited data

How the results depend on the processing

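Over all genes, limma called 141 genes in the fit as reported, 13 with no filter on low values, 56 with the replicate block, 37 without both libraries numbered 3 and 14 to 88 with 1 library left out. In the set, 0 members were called with no filter, with plain empirical Bayes, after rescaling to TPM and with the replicate block. In each of these, 6 members (14.6%) had an unadjusted p under 0.05 by limma. The share of all genes was 8.51%, 13.7%, 13.5% and 16.8% in that order, so with the block the members lay below it. With 1 library left out, 0 members were called in any fit. There 5 to 9 members (12.2% to 21.95%) had an unadjusted p under 0.05, against 9.78% to 16.003% of all genes. The members' share was the higher in each of those fits, which share most of their libraries, but barely so without mitochondria replicate 3 (12.2% against 11.8%). Of these members 3 of 5 were higher without mitochondria replicate 3 and all without mitochondria replicate 1 or 2. Without control replicates 1, 2 and 3 the numbers higher were 8 of 9, 6 of 8 and 7 of 9. The limma adjusted p of Slfn5 was 0.0655 with the block and ran from 0.0362 to 0.146 over the settings other than single omissions. Deviations of same-numbered libraries correlated at 0.10, 0.05 and 0.30, and mitochondria replicates 1 and 2 each correlated better with another number (0.12 and 0.10), so the numbers were not taken to pair the libraries. A library numbered 3 correlated with those of another number in the other group at −0.20 to −0.13. Deviations from a group mean cancel within the group, so these negative values follow in part from the 0.30 and are not a separate observation. Whether the 2 libraries numbered 3 share a source of variation was not tested. The sign of 12 members turned without both libraries numbered 3, to −0.092 for Gbp3, −0.13 for Ifi35, −0.014 for Ifi44, −0.26 for Irf7, −0.028 for Isg20, −0.075 for Mx1, −0.13 for Mx2, −0.078 for Oas1a, −0.18 for Slfn2, 0.064 for Tlr3, −0.16 for Xaf1 and −0.0039 for Zbp1, all log2 changes. Ifnar2 turned with TMM scaling to 9.4e-05 and with quantile normalization to 0.013. With 1 library left out the sign turned for 12 members, with log2 changes from −0.055 to 0.13 for Ifi35, −0.038 to 0.26 for Ifitm1, −0.086 to 0.18 for Ifnar1, −0.075 to 0.039 for Ifnar2, −0.11 to 0.15 for Irf7, −0.22 to 0.085 for Isg15, −0.17 to 0.22 for Mx1, −0.072 to 0.12 for Mx2, −0.25 to 0.11 for Oasl2, −0.14 to 0.10 for Slfn2, −0.16 to 0.041 for Tlr3 and −0.077 to 0.12 for Xaf1. The cause was not tested. The effect of depth was not tested.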

Other observations

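Among 11 tested targets of NF-kB, the factor that the same sensors also activate, Cxcl1 was the 1 gene called (9.09%, against 1.12% of all genes). This neutrophil chemokine was at 65.8, 57.3 and 56.3 FPKM in the controls and at 36.3, 37.8 and 35.2 FPKM with mitochondria, with no overlap. The log2 change of Cxcl1 was −0.70, with an SE of 0.07 and a limma adjusted p of 0.0148, and with 1 library left out the call held in 2 of 6 fits. The other 10 targets were not called, and the list's median log2 change was −0.03. Of the 11, 3 were higher without overlap (27.3%, against 9.62% of all genes) and 1 was lower (9.09%, against 11.4%).

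The 13 protein-coding genes of mitochondrial DNA summed to between 27536 and 28770 FPKM in the controls and between 28177 and 31018 FPKM with mitochondria, and none was called by limma or had an unadjusted p under 0.05. Of the 13, 12 had a positive log2 change (92.3%, against 48.0% of all genes), with a median of 0.08. Mitochondria replicate 1 held the highest value of 10 of them (76.9%, against 12.5% of all genes). By p, mt-Nd2 and mt-Cytb came first, with mt-Nd2 at 1587 ± 52.5 and 1737 ± 65.6 FPKM (SD, n = 3; limma adjusted p = 0.394) and mt-Cytb at 2557 ± 71.9 and 2845 ± 194 FPKM (limma adjusted p = 0.397). Among the astrocyte markers Aldoc was at 14.1 ± 1.61 and 17.9 ± 2.28 FPKM and Glul at 38.2 ± 1.27 and 36.4 ± 1.28 FPKM, neither called by limma. The leukocyte list had Tmem119 at 240.9 ± 26.6 and 191 ± 14.1 FPKM (limma adjusted p = 0.182) and Cd74 at 1.70 ± 0.255 and 1.72 ± 0.381 FPKM. The endothelial markers summed to 76.1 to 86.4 FPKM and 79.3 to 88.4 FPKM, with Flt1 at 10.04 ± 0.932 and 7.75 ± 0.278 FPKM and Kdr at 3.94 ± 0.249 and 2.996 ± 0.262 FPKM (limma adjusted p = 0.114 and 0.143). The other 3 of the 5 tested endothelial markers had a positive log2 change, and the list's median was 0.09. Among fibroblast and mural markers Col1a1, a chain of type I collagen, was called lower, at 138 ± 2.45 and 83.9 ± 3.19 FPKM (limma adjusted p = 0.00547). It was the 1 gene called of 5 tested (20%, against 1.12% of all genes). Of the 5, 3 had a positive log2 change, and the list's median was 0.07. The part of these in the results above was not tested.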
